A study of Homo sapiens with 2 samples.

Results

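The 6 genes described here encode proteins that detect, edit or destroy RNA in the cytosol. They were RIGI (listed under its older symbol DDX58), IFIH1, DHX58, EIF2AK2, ADAR and ZC3HAV1, and every binding summit of the transcription factor IRF1 that named one of them as its nearest gene was taken, at any distance. This gave 8 of the 1986 summits in the deposited list (0.403%), for 6 of 19974 protein-coding genes. IRF1-bound DNA was immunoprecipitated and sequenced (ChIP-seq) from NB4, an established human acute promyelocytic leukemia line with the PML-RARA fusion. The 2 libraries were NB4 cells given all-trans retinoic acid (ATRA), which makes these leukemia cells differentiate, and NB4 control cells, for which the protocol names the solvent DMSO, both for 4 hours. The list carries the name of the ATRA library, and no value of the control cells was used here. The values therefore describe ATRA-treated cells, with no replicate spread, and no change against control cells was computed here.

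In mammalian cells, RIG-I-like receptors are helicases that recognise double-stranded or uncapped viral RNA and signal through the mitochondrial adaptor MAVS to induce interferon. Interferon then raises the amount of the receptors themselves and of other RNA-binding defence proteins, acting through interferon-stimulated response elements, repeats of a GAAA core that IRF proteins bind. ADAR converts adenosine to inosine in double-stranded RNA, which keeps the cell's own RNA from being detected by these sensors.

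Each of the 6 genes had at least 1 summit within 10 kb of its transcription start site (TSS). Of all protein-coding genes, 3.36% had one. The 6 genes were chosen with results of these data known, so their count is a description and no measure of enrichment. The best summit was annotated as promoter in 5 genes and as 5′ UTR in ZC3HAV1. The peak score is the authors' own value per summit. Its scale is not given in the sources used here, so it serves to rank summits within this list only. The list's scores ran from 8.28 to 321.4 with a median of 25.2, and the best summits of the 6 genes scored between 52.5 and 172.9. Which background the peaks were called against is unknown. With control-cell chromatin as background, the score would measure enrichment over control cells.

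RIGI, IFIH1 and EIF2AK2 had a summit inside a RefSeq promoter window (GRCh38.p14, 250 bases before to 50 after an annotated start). These 3 windows are printed because they show which response element letters lie beside the summits. Each is written 5′ to 3′ along the gene, which runs on the minus strand. Capitals mark matches, on either strand, to the repeated core of the response element (GAAA, any 2 bases, GAAA; the longer motif), or to AANNGAAA, the shorter core bound by IRF proteins. The windows lie at chr9:32526147-32526446 (RIGI), chr2:162318635-162318934 (IFIH1) and chr2:37156931-37157230 (EIF2AK2).
RIGI: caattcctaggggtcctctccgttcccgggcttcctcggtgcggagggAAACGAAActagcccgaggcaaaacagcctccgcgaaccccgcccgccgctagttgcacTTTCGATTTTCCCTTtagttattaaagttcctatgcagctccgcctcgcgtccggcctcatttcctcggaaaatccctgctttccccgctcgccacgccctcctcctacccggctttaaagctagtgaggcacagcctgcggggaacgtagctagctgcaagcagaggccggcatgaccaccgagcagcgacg
IFIH1: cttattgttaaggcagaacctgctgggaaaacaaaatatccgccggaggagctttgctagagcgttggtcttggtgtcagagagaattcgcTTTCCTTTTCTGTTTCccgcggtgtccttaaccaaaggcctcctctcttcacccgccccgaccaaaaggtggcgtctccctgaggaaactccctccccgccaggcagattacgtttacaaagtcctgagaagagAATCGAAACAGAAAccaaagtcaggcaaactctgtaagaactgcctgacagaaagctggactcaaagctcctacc
EIF2AK2: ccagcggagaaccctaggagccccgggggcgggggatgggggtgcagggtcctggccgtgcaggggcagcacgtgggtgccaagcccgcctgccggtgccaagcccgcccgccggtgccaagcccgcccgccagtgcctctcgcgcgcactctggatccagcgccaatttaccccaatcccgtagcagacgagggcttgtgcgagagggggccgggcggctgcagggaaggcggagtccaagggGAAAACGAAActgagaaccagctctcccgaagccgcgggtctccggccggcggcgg

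The longer motif was present in the windows of IFIH1 and EIF2AK2 and in none of the windows of RIGI, ADAR or ZC3HAV1. Of all 35116 RefSeq promoter windows, which overlap where a gene has several starts, 3.57% held it. Among the 302 windows with a summit of the list inside, 117 (38.7%) held it, against 3.27% of the 34814 windows without a summit. The shorter core AANNGAAA, which forms the last part of the longer motif, was present in the windows of RIGI, IFIH1, EIF2AK2 and ZC3HAV1, and in none of the 3 windows of ADAR. It was held by 22.8% of all windows, and by 197 of the 302 windows with a summit inside (65.2%), against 22.5% of those without. A further motif, TTCNNNGAA, the palindromic element bound by STAT dimers, was present in the ZC3HAV1 window alone among the members, and in 7.66% of all windows. It was held by 7.62% of windows with a summit and 7.66% of windows without one.

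The RIG-I-like receptor family has 3 members, and each had a summit at its promoter. RIGI, the receptor for short double-stranded RNA with 5′ triphosphates, had the highest score of the 6 genes. Its main summit, at chromosome 9 position 32526356, had a score of 172.9, which ranked 41 of 1986 and exceeded 97.9% of the list. It lay -32 bp from the deposited TSS of transcript NM_014314, with negative values upstream. A second summit of RIGI, 248 bp farther upstream at position 32526604, scored 12.7 and ranked 1871, above 5.3% of the list. Both were annotated to the promoter of NM_014314, so the gene's 2 summits marked the same promoter with scores near opposite ends of the list.

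In the RIGI window the main summit lay between matches to the shorter core. One match, on the gene's strand, was 35 bp upstream of the summit, and a pair on the opposite strand that overlaps by a base was 17 and 24 bp downstream. The upstream match is shown here with 6 bases on each side, as it reads next to that of EIF2AK2.
RIGI: ggagggAAACGAAActagcc
EIF2AK2: aggggaAAACGAAActgaga
Both stretches contain the run AAACGAAACT. The EIF2AK2 stretch also holds a match to the longer motif, and the RIGI stretch holds none.

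IFIH1, also called MDA5, is the receptor for long double-stranded RNA. Its single summit, at chromosome 2 position 162318673, had a score of 59.8 and ranked 340, above 82.8% of the list. It was annotated to the promoter of NM_022168, 35 bp downstream of the deposited TSS. The window held the longer motif 3 times. The match nearest to the summit was on the gene's strand, 23 bp upstream of the summit, and a pair of overlapping matches on the opposite strand lay 155 and 161 bp upstream. GCA, which encodes the calcium-binding protein grancalcin, starts on the other strand 79 bp from the RefSeq start of IFIH1, and the summit was 90 bp from that start. GCA itself was the nearest gene of a different summit, 171.9 kb away with a score of 29.7. The summit at IFIH1 was thus in a shared promoter region, and the annotation assigns it to IFIH1 alone.

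DHX58, also called LGP2, binds RNA but lacks the signalling domains of the other two receptors and modulates them. Its single summit, at chromosome 17 position 42112747, had a score of 126.2 and ranked 100, above 95.0% of the list. It lay -14 bp from the deposited TSS of NM_024119, the smallest deposited distance among the 6 genes. Counted from RefSeq starts it lay at -33 bp, and the summits of IFIH1 (11 bp) and EIF2AK2 (-15 bp) were closer. The gene KAT2A, a histone acetyltransferase, ends 364 bp from this summit and starts 8620 bp from it, so no second start lay as close. Of the 3 receptors, RIGI and DHX58 had scores above 100 and IFIH1 did not.

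**Figure D1:**
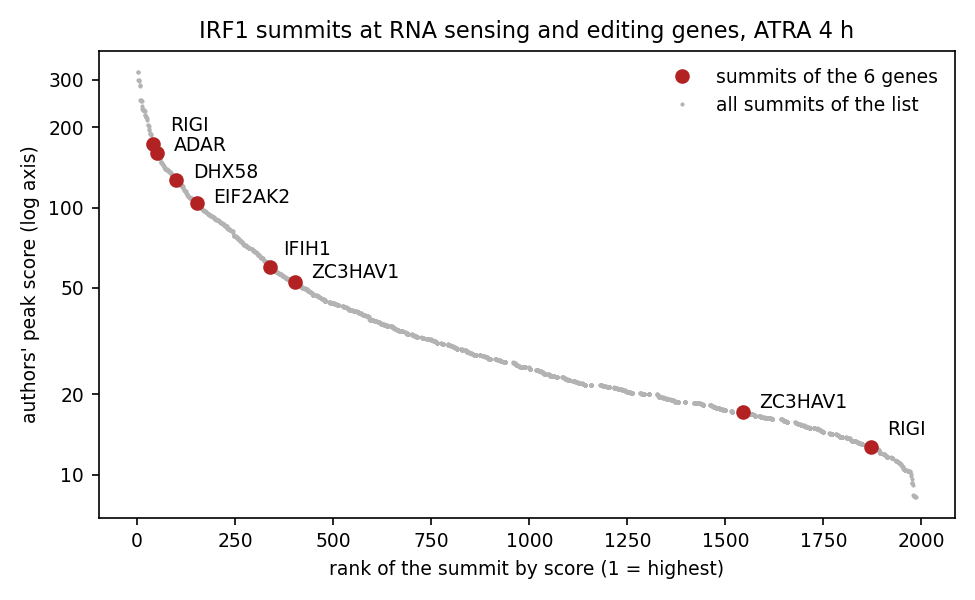
The authors' peak score (log axis) is plotted against rank for all 1986 summits (grey points) and for the 8 summits of the 6 genes (red points) in the ATRA library. The best summits of the genes fall between rank 41 and rank 402, and the second summits of ZC3HAV1 and RIGI at ranks 1544 and 1871.

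EIF2AK2 encodes PKR, a kinase that is activated by double-stranded RNA and stops translation by phosphorylating the initiation factor eIF2 alpha. Its single summit, at chromosome 2 position 37156995, had a score of 104.1 and ranked 152, above 92.3% of the list. It was annotated to the promoter of NM_002759, at 52 bp downstream of the deposited TSS. The RefSeq start of the gene lies 67 bp farther downstream, so the same summit is 15 bp upstream of that start. The longer motif occurred once in its window, 9 bp downstream of the summit, and spanned the RefSeq start, from 6 bp before to 3 bp after it. The longer motif with a further G in front of its first GAAA was also met there and in the IFIH1 window. It was held by 1.16% of all windows, and by 13.9% of the windows with a summit inside. The EIF2AK2 window had the highest GC content of the 3, at 72.3% with 30 CpG dinucleotides, against 60.3% and 27 in RIGI and 50.7% and 12 in IFIH1.

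ADAR had a summit at only one of its promoters. ADAR is transcribed from constitutive upstream promoters that yield the short nuclear enzyme and from an interferon-driven promoter farther downstream that yields the long, largely cytoplasmic enzyme. The single summit, at chromosome 1 position 154608180, had a score of 159.3 and ranked 50, above 97.5% of the list. It was annotated to the promoter of NM_015841, and NM_015840 was given as the nearest promoter. Both transcripts encode the long form, so the marked promoter was the interferon-driven one. The deposited TSS, 68 bp upstream of the summit, is position 154608248.

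The upstream start sites of ADAR, at 154627997 and 154627971, had no summit of the list near them. The farther of them lay 19817 bp upstream of the ADAR summit, which was the only one inside the gene's span (154582057 to 154627997) or within 10 kb of it. Another RefSeq start with a promoter window, at 154608797, was 617 bp upstream of the summit, and the summit was not inside that window. The sequence at the summit itself was not analysed here, and the windows at the other starts held neither the longer motif nor the shorter core. Their GC content was between 47.7% and 53.0%.

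ZC3HAV1, also called ZAP, binds CpG-rich viral RNA and recruits RNA decay enzymes. It had the lowest best score of the 6 genes and the position farthest from the deposited TSS. From the nearest RefSeq start, the ADAR summit was farther (617 bp, against 334 bp for ZC3HAV1). The summit at chromosome 7 position 139109386 had a score of 52.5 and ranked 402, above 79.8% of the list. It lay 333 bp downstream of the TSS, in exon 1 of 9 of NM_024625, in the part annotated as 5′ UTR. The second summit, at position 139112011 and 2625 bp from the first, scored 17.2, ranked 1544 and was annotated as intergenic, -2292 bp from the TSS, in an A-rich low-complexity stretch. The first summit had NM_020119 as nearest promoter and the second NM_024625. These transcripts encode the long and the short ZAP protein, and both distances lead back to the same start, 139109719, so the summits do not tell the transcripts apart. The single match to the shorter core in the ZC3HAV1 window lay 8 to 15 bp downstream of the RefSeq start, on the opposite strand, and neither summit was inside this window.

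**Figure D2:**
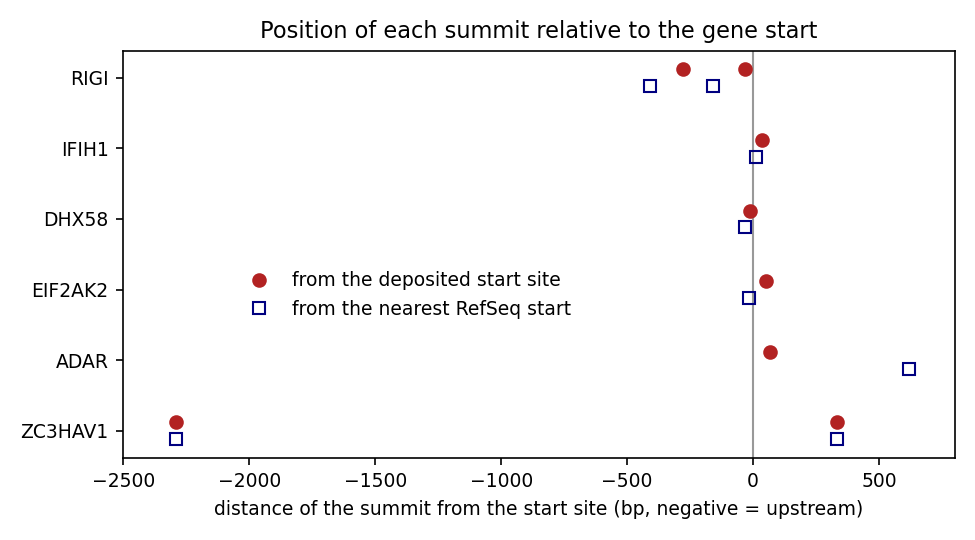
Distance in bp of each of the 8 summits from the start site deposited with it (filled circles) and from the nearest start in the RefSeq tables (open squares), 1 row per gene, with negative values upstream. For DHX58 the RefSeq start is the end of the gene span. The deposited distances of the best summits stay within 68 bp for 5 genes, and the RefSeq start moves that of ADAR to 617 bp and that of RIGI to -160 bp.

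Among the 6 genes, 5 had their best summit within 100 bp of the deposited TSS, with a median absolute distance of 43.5 bp. Of the other 666 protein-coding genes with a summit within 10 kb, 171 (25.7%) had theirs within 100 bp, with a median of 551.5 bp. Counted from the nearest RefSeq start, 3 of the 6 best summits lay within 100 bp, with a median of 96.5 bp. Of 558 other genes with a promoter window, 140 (25.1%) had theirs within 100 bp, with a median of 525.0 bp. The sets are unlike, because the 6 include DHX58, which has no promoter window. Its summit, at -33 bp from the end of its gene span, is among the 3 within 100 bp. The median best score was 115.2 for the 6 genes and 28.3 for the others, and scores above 100 were found in 4 of 6 and in 76 of 666 (11.4%). More than 1 summit within 10 kb was found for RIGI and ZC3HAV1, and for 8.3% of all 672 genes with a summit. No test was made on these values, because the genes were chosen with results of these data known and come from 1 library.

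The nearest summit with another nearest gene was 171.9 kb away for IFIH1, 176.3 kb for DHX58 (a summit of STAT5A), 181.7 kb for the main RIGI summit (ACO1), 335.7 kb for ADAR, 544.5 kb for the main ZC3HAV1 summit and 1521.1 kb for EIF2AK2. Over all 1986 summits this distance had a median of 370.5 kb and quartiles of 117.0 and 982.4 kb, and the values of 5 of the 6 genes lay between these quartiles.

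**Figure D3:**
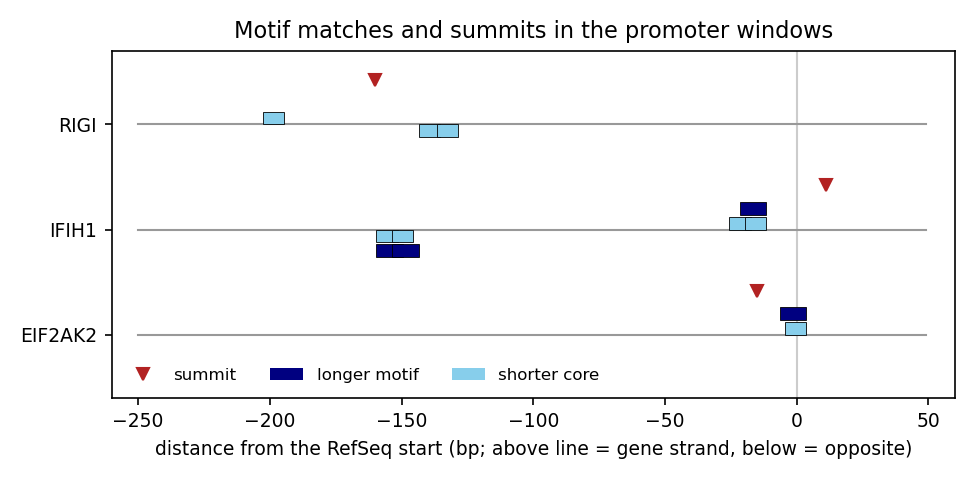
Matches to the longer motif (dark bars) and the shorter core (light bars) in the promoter windows of RIGI, IFIH1 and EIF2AK2, by distance in bp from the RefSeq start, above the line on the gene's strand and below it on the opposite strand. The red triangles are the summits, and the nearest bar to the summit begins 17 bp away in RIGI, 23 bp in IFIH1 and 9 bp in EIF2AK2.

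In score, the genes taken as most like the members were those whose best summit within 1 kb of a TSS came next above and next below. They were DNAJA1 (177.2) and FLT3LG (169.6) around RIGI, PARP10 (160.8) and PCGF5 (159.1) around ADAR, and WBP4 (126.5) and LNPEP (124.8) around DHX58. SH2B3 (106.4) and MGAT1 (98.9) lay around EIF2AK2, PCNA (60.3) and SMG6 (59.2) around IFIH1, and SPSB1 (52.7) and CASP1 (52.3) around ZC3HAV1. Genes of exactly equal score were not taken, and EIF2AK2 and IFIH1 each shared their score with another summit of the list. The scores come from 1 library, so the order of neighbours this close cannot be told from their unknown spread.

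A list of 67 other genes that sense RNA, relay the signal or act on RNA was set beside the members. Of these, 21 (31.3%) had a summit within 10 kb, beside a background of 3.36%, and their median best score was 36.5. The list was chosen with earlier results of these data known, and its grouping by role came after seeing values. The share and the counts by role, here and below, are therefore descriptions only. Among 12 genes for antiviral proteins that act on RNA or are activated by it, 10 had one. SHFL, an inhibitor of ribosomal frameshifting, had the highest score at 320.5. OAS3, an oligoadenylate synthetase activated by double-stranded RNA, had 97.8 at -88 bp. IFIT1, which binds RNA lacking cap methylation, had 76.5 at -44 bp, and its partner IFIT3 had 51.8 at -10 bp. SAMD9L, an antiviral inhibitor of translation, had 43.4 at 750 bp, and its paralog SAMD9 had 28.0 at -65 bp. Lower scores were those of IFIT2 (25.4), IFIT5 (23.9), OAS1 (23.2) and OASL (19.9), near or below the median of 25.2 over all summits. The members of this group without a summit were OAS2 and ZBP1, a sensor of left-handed RNA helices.

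Of 12 genes that connect the sensors to transcription, 3 had a summit within 10 kb, beside the background of 3.36%. MAVS, the adaptor of RIGI and IFIH1, the kinases TBK1 and IKBKE, the factor IRF3 and the ligases TRAF3 and TRAF6 had none. Those with one were the factors IRF7 (45.7 at 27 bp) and IRF5 (44.0 at -31 bp), and AZI2, a TBK1 adaptor (21.8 at 476 bp). Among 13 regulators of the sensors, TRIM25, the ubiquitin ligase known as a cofactor of RIGI and ZC3HAV1, alone had a summit (27.0 at -8 bp), and 1 gene of 13 is no result about this group. TLR3, an endosomal receptor of double-stranded RNA, had 14.4 at 17 bp, and TLR7, TLR8 and their chaperone UNC93B1 had none. Of 5 genes for RNA decay and partners of ZC3HAV1, the exonuclease XRN1 had one (63.3 at 44 bp).

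None of the 8 listed paralogs of the members had a summit within 10 kb. These were the deaminases and related genes ADARB1, ADARB2, ADAD1 and ADAD2, the eIF2 alpha kinases EIF2AK1, EIF2AK3 and EIF2AK4, and ZC3HAV1L. The nearest summit of the list to any of their spans was 28.9 kb from ADAD1, and the summit nearest to ZC3HAV1L was that of ZC3HAV1, 73.3 kb away. Beside a background of 3.36%, a count of 0 among 8 genes is no result about the paralogs. Among genes of the eIF2 alpha pathway on which EIF2AK2 acts, the phosphatase subunit PPP1R15A had a summit (18.2 at 4279 bp). That summit was annotated to the transcription termination site, not a promoter, and lay 613 bp outside the gene's span. The relative PPP1R15B and the substrate gene EIF2S1 had none.

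Of 55 RNA helicase genes, taken as those named DDX or DHX with a number together with RIGI and IFIH1, 8 (14.5%) had a summit within 10 kb, beside the background of 3.36%. This list too was chosen with earlier results of these data known. Among the other 52 genes, without the 3 receptors, 5 had a summit within 10 kb. The receptors, members chosen with results known, made up 3 of the 8. Next to them stood DDX60, an interferon-induced helicase (124.8 at 17 bp), its neighbour DDX60L (55.0 at 17 bp, with 3 summits), DDX3X (36.5 at -1579 bp), DDX51 (13.7 at -14 bp) and DHX15 (12.9 at -169 bp). DDX60 scored close to DHX58 (126.2), and DDX60L close to IFIH1 (59.8). The antiviral helicase gene ZNFX1 counted as having no summit, although one with a score of 232.9 lay 44 bp from its span and was assigned to its non-coding neighbour ZFAS1.

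**Figure D4:**
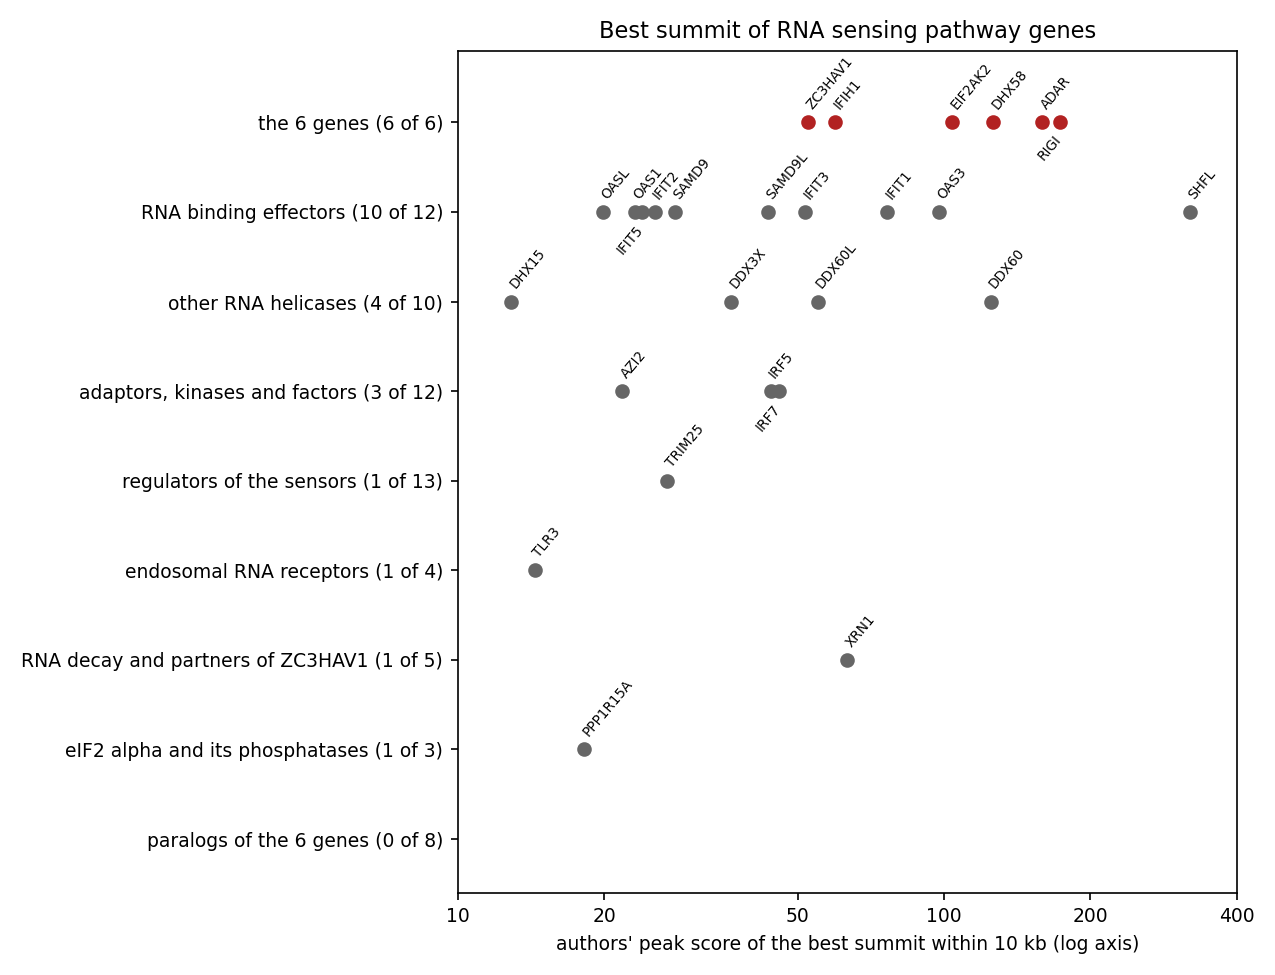
Best peak score within 10 kb of the TSS (log axis) for the 6 genes (red) and the listed genes with a summit (grey), by role, with the number with a summit of the number listed beside each role. The 6 genes lie between 52.5 and 172.9, the 10 effectors between 19.9 and 320.5, and the row of paralogs is empty.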

How the data were processed

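Per the labels' protocols, NB4 cells were fixed with formaldehyde, chromatin was sonicated, and libraries were amplified by PCR. The submitters' processing notes list Bowtie2 2.2.9, MACS 1.4.2 and hg38. Summits were annotated with annotatePeaks.pl on hg38, per the file headers. The authors deposited 1 score per summit and a signed distance to the TSS. For the calling, threshold, background and duplicate handling are not stated in these sources, and read depth is unknown.

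Genes were matched by Entrez identifier to RefSeq (GRCh38.p14), which held the nearest gene of 1977 summits. A gene counted when a summit named it as nearest gene at 10 kb or less from its TSS. Deposited TSS positions were computed from position and distance. Promoter windows were matched for 5 of 6 genes and searched on both strands, overlaps included, with a search checked on simulated sequences. With 1 library per group no test was made. Members and lists were chosen with earlier results of these data known, and the grouping by role and TTCNNNGAA after seeing values. Named are the members, the 12 highest of the list, genes alike in score, and neighbours within 50 kb. A gene of the list is not reported here and not counted. Other genes named were chosen after their values were seen. Python 3.11.15, pandas 2.3.3 and NumPy 2.4.6 were used.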

Additional observations from a re-analysis of the deposited data

How the results depend on the processing

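All 6 genes had a summit within 1 kb, within 5 kb and at any distance. They also had one by gene spans extended by 10 kb and among the 993 highest summits. These settings could not change the count. Every best summit lay within 333 bp of the deposited TSS, and the lowest ranked 402. Merging summits under 200 bp apart left 8. It could not change this number, because the RIGI summits lay 248 bp apart and those of ZC3HAV1 2625 bp. Of all protein-coding genes, 2.03% had a summit within 1 kb, 2.82% within 5 kb, 6.38% at any distance and 1.90% among the highest summits. The share for extended spans was not computed. The listed genes with a summit numbered 21, and between 14 and 22 under the same settings. The helicases numbered 8, and between 6 and 11, with the 3 receptors included. The members with the motif in a window were 2, and 4 with the shorter core AANNGAAA, which has fewer fixed letters, and 2 with a further G in front. Counting from the RefSeq start, chosen after seeing the data as were the helicase alternatives, put the EIF2AK2 summit at -15 bp instead of 52 bp, and moved the other 5 distances without a change of side. By that start 3 of the 6 best summits lay within 100 bp, instead of 5. These 3 include DHX58, counted from the end of its gene span. No paired analysis was possible because there was 1 library per group, and no replicate could be left out. Read depth is unknown, so a missing summit does not show missing binding.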
